A study of Mus musculus with 6 samples.

Results

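Axon guidance ligands and receptors were examined in DR4 mouse embryonic fibroblasts, cells used as a feeder layer beneath embryonic stem cells. The members were the probe sets of the Affymetrix MOE430A and MOE430B arrays whose single gene symbol in the platform annotation belongs to the semaphorins of classes 3 to 7, the plexins, the neuropilins, the Eph receptors, the ephrins, the Slits, the Robos, the netrins or the netrin receptors. A probe set is a group of short oligonucleotides that together measure a transcript. There were 161 members among 45137 probe sets, 100 of 22626 on MOE430A and 61 of 22511 on MOE430B, and they named 72 of 18193 genes. Of these 72, 3 matched by the letters of their symbol and are no guidance ligands or receptors: Unc50, Unc5cl and the antisense transcript Plxna4os1. The other 69 are guidance genes. Ephb2 was not analysed here, because no probe set carries it as its single symbol.

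By their labels the cells are fibroblasts of day 15 embryos, and the series title makes them the control of J1, R1 and V6.5 stem cells, which were not analysed here. The medium was D-MEM holding 15% serum and LIF, and dishes were coated with 0.1% gelatin. For replicate 1 the labels give 12x10e6 cells, in their notation, and RNA at 2.4 ug/ul, and for each of replicates 2 and 3 they give 3x10e6 cells and 3.0 ug/ul. Each of the 3 replicates was hybridized once to each array type, which makes 6 samples of 1 kind of cell, with no other genotype, treatment or time to set against it. Whether the 3 came from different cultures is not in the labels, so a p-value here speaks of the spread among samples, possibly a technical one. That spread was mostly pooled over all probe sets tested. Strain, and any treatment to halt cell division, are not stated in the labels.

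Guidance molecules were first known from growing axons, which they attract or repel, and they act in the same way on migrating fibroblasts, neural crest and blood vessel cells. Secreted class 3 semaphorins bind neuropilins, which signal through plexins, while most other semaphorins bind plexins directly. Ephrins are held on the cell surface, those of class A by a lipid anchor and those of class B by a membrane-spanning segment, and they bind Eph receptor tyrosine kinases on the neighbouring cell. Slits are secreted ligands of Robo receptors, and netrins are ligands of Dcc, Neo1 and the Unc5 receptors.

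Values are MAS5 signals on a linear scale. A probe set was called above the floor when, on each of the 3 arrays of its type, it exceeded the median of that array. That median was 689, 685 and 734 in replicates 1, 2 and 3 on MOE430A, and 849, 917 and 907 on MOE430B. As a second yardstick, the brightest of the tryptophan controls, which are bacterial and have no mouse target, read 614, 757 and 786 on MOE430A and 1989, 2348 and 2229 on MOE430B, so an MOE430B signal under about that height is not told apart from that of a probe set with no target. A higher signal on one probe set than on another does not make its transcript more abundant, and levels of the 2 array types were not set against each other except to choose which pathway genes to name. With so few arrays, precision is limited throughout. The fibroblast label was checked against markers: all 12 measured fibroblast markers were above the floor, against 4 of 14 of neurons and glia, 2 of 10 of endothelium, 3 of 9 of macrophages and 2 of 7 of epithelium. In a bulk sample, few cells with much of a transcript and many cells with little of it cannot be told apart.

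By any of its probe sets, a member gene was above the floor in 40 of 72 cases (55.6%), beside 54.7% of all genes with 1 symbol, so the module as a whole stood where genes in general did. By probe sets, 35 of 100 members (35.0%) were above the floor on MOE430A, beside 42.4% of all probe sets, and 30 of 61 (49.2%) on MOE430B, beside 37.2%. The families differed in their counts. Plexins and neuropilins were above the floor for 9 of 11 genes, ephrins for 6 of 8, semaphorins for 10 of 20, Eph receptors for 6 of 13, Slits for 2 of 3, Robos for 0 of 4, netrins for 0 of 4 and netrin receptors for 5 of 6. These counts are a description, and no test was made between families. They depend on the floor: 31 member genes (43.1%) exceeded the highest tryptophan control and 19 (26.4%) the 75th percentile of every array, beside 44.0% and 30.4% of all genes, and 65 (90.3%) exceeded a fixed signal of 200, beside 79.7%.

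**Figure D1:**
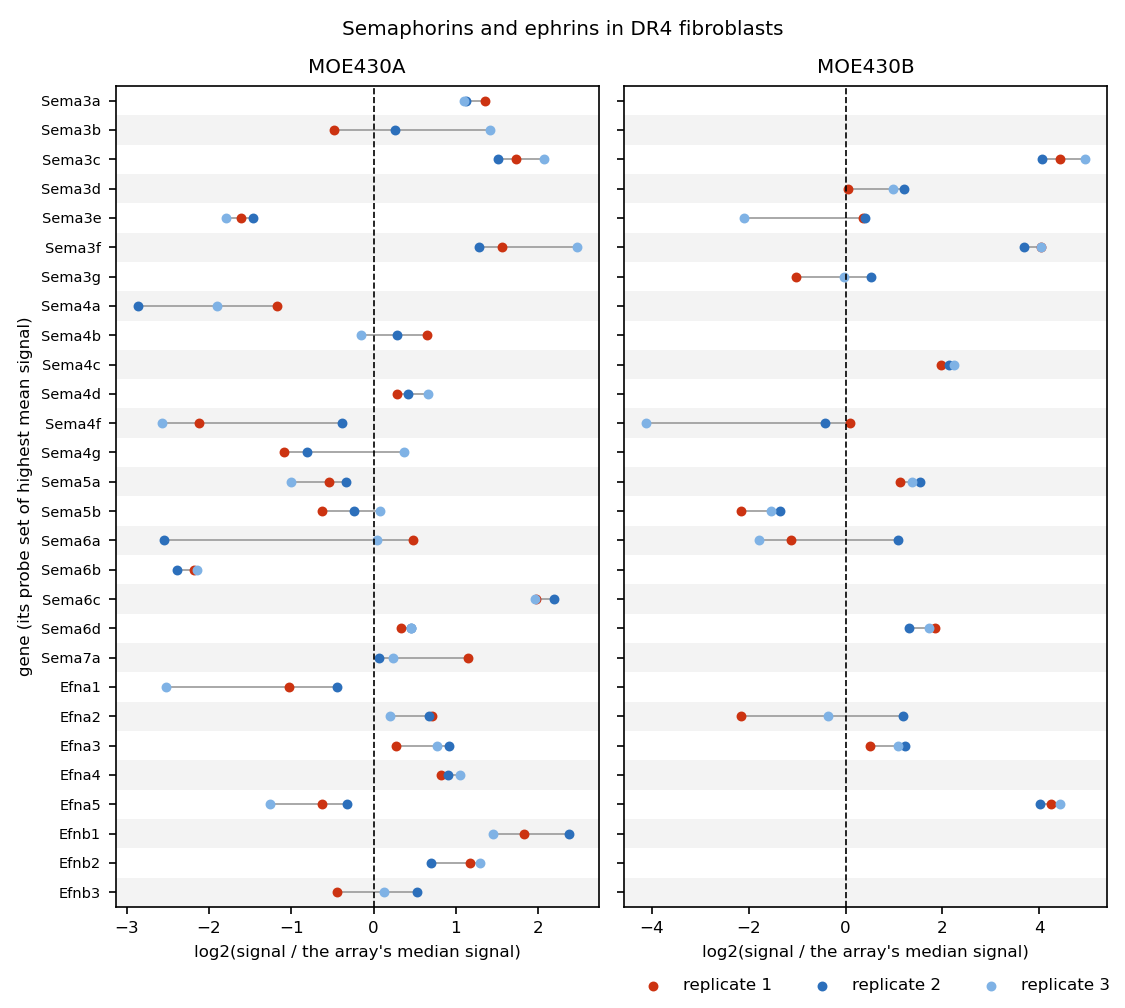
Signals of 20 semaphorin and 8 ephrin genes, each on its probe set of highest mean signal per array type, as log2 of the signal over that array's median signal (x axis) by gene (y axis), with replicate 1 in red, replicate 2 in dark blue, replicate 3 in light blue, and the dashed line at the median. Sema3c, Sema3f and Efna5 lie far right of the line on MOE430B, and Sema4a, Sema6b and Efna1 lie left of it in all 3 replicates on MOE430A.

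Among the secreted class 3 semaphorins, 4 of 7 genes were above the floor, Sema3a, Sema3c, Sema3d and Sema3f. Sema3c, a neuropilin ligand known for its part in forming the outflow tract of the heart, had signals of 2297, 1951 and 3082 in replicates 1, 2 and 3 on MOE430A, and 18213, 15176 and 27956 on MOE430B. Both of its probe sets were above the floor, with the highest value in replicate 3 on each array type. Sema3f, which binds Nrp2, had 2027, 1663 and 4067 on MOE430A and 13936, 11724 and 14952 on MOE430B. Sema3a, the founding repellent of the class and a ligand of Nrp1, had 1756, 1487 and 1570.2 on 1 probe set, while its other probe sets had 829.7, 570.5 and 924 and 66.3, 36.5 and 52.5. Sema3a therefore stood above the floor by 1 of its 3 probe sets. Sema3d had 877, 2112 and 1782 on MOE430B, where replicate 1 was the lowest and lay close to its floor.

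Sema3b, Sema3e and Sema3g were not above the floor on all arrays. Sema3b had 494, 818 and 1962 and 311, 721 and 1826 on 2 of its probe sets, with replicate 1 under the floor and replicate 3 well above it. Sema3e, the ligand of Plxnd1 in blood vessels, had 226, 248 and 212 on the brightest of its MOE430A probe sets and 1092, 1213 and 212 on MOE430B. Sema3g had 418, 1319.6 and 892. Only replicate 2 of Sema3g exceeded its floor.

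Of the membrane-bound semaphorins, Sema4c, Sema4d, Sema5a, Sema6c, Sema6d and Sema7a were above the floor. Sema6c had 2711, 3129 and 2866 on MOE430A, among the members that varied least, though its other probe sets had 419, 36.8 and 199 and 203, 154 and 385. Sema4c had 3348, 4013 and 4264 on MOE430B, its single probe set. All 4 probe sets of Sema6d, a ligand of Plxna1, were above the floor, with 869, 938 and 1003 on MOE430A and 3049, 2277 and 3005 on the brightest of those on MOE430B. Sema5a, a semaphorin with thrombospondin repeats, had 1852, 2650.2 and 2353 on 1 of its 4 probe sets. Sema4d, a ligand of Plxnb1, was above the floor by little, at 837, 917 and 1159.9, and by only 1 of its 3 probe sets. The others had 219, 60.7 and 108 and 59.2, 53.3 and 72.7. Sema7a, the semaphorin anchored by a lipid, was above the floor by 1 of its 2 probe sets. That probe set was highest in replicate 1, at 1524, 718 and 863. The other Sema7a probe set was under the floor in all replicates and highest in replicate 2. In the other direction, Sema4a had 307, 94 and 196 and Sema6b had 152, 131 and 165 on their brightest probe sets, under the floor on every array. Sema4b (1077, 836 and 658), Sema4g (325, 392 and 951) and Sema5b (448, 583 and 776) crossed the floor between replicates. So did Sema6a, at 959.8, 117 and 757 on MOE430A, and Sema4f, at 904, 686 and 52 on MOE430B.

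Ephrins of both classes were above the floor. Efna5, an ephrin known for guiding retinal axons, had 16022, 14886 and 19395 on MOE430B, one of the brightest member signals on that array type, but 447, 549.8 and 308 on its MOE430A probe set, under the floor in all replicates. The 2 probe sets of Efna5 thus disagreed on whether its transcript was above the floor. Efnb1, the X-linked ephrin whose loss in humans causes craniofrontonasal syndrome, was above the floor on all 3 of its probe sets, with 2451, 3568 and 2012 on the brightest. Efnb2, the ligand of Ephb4 on arterial endothelium, had 1550.3, 1112 and 1805 and 1176, 732 and 1943 on the 2 probe sets above the floor, each lowest in replicate 2 and highest in replicate 3. The remaining class A ephrins above it lay closer to the floor on MOE430A. Efna2 had 1127, 1096 and 846, Efna3 had 831, 1291 and 1258, and Efna4 had 1213, 1288 and 1518. Efna1, a ligand of Epha2, was under it at 338, 505 and 128 and 468, 59.5 and 83.5, and Efnb3 had 509, 985 and 801, under the floor in replicate 1 only.

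Plexins and neuropilins, the receptors of semaphorins, were mostly above the floor. Nrp1, the neuropilin that binds Sema3a and also VEGF, had 6555, 4943 and 3909 on its brightest MOE430A probe set, and all 4 of its probe sets were above the floor. The order of the replicates was not the same on every Nrp1 probe set, since another had 1555, 1907 and 2389.6. Nrp2, which binds Sema3f, had 1963, 3239.7 and 3231 on MOE430A and 6733, 7045 and 8512 on MOE430B. Replicate 1 was the lowest of the 3 on both, and also on a further MOE430B probe set of Nrp2 at 4024, 4382 and 5913. On the remaining one, at 785, 1502 and 195 and not above the floor, replicate 3 was the lowest.

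Plexins are large receptors whose cytoplasmic part acts on small GTPases. All 4 class A and all 3 class B plexin genes were above the floor. Plxnb2, a class B plexin, had 6171, 7048 and 8469 on its single probe set, far above the floor in each replicate. Plxna1 had 15418, 11836 and 15979 on MOE430B and 709, 669 and 795 on MOE430A, where replicate 2 fell under the floor. Plxna2 had 4371, 5509 and 6653 on the brightest of its 4 probe sets, on MOE430B, and Plxna3 had 1628, 1965 and 2242. The other class B plexins were Plxnb1, with 1701, 4273 and 2431 on MOE430B, and Plxnb3, with 958, 876 and 799.9 on MOE430A. Plxna4 was above the floor on MOE430B only, by both of its probe sets. Plxnc1, the receptor of Sema7a, was under the floor on every array by all 6 of its probe sets, with no signal above 652. Plxnd1, the receptor of Sema3e, had 542, 918 and 849, under the floor in replicate 1 only.

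**Figure D2:**
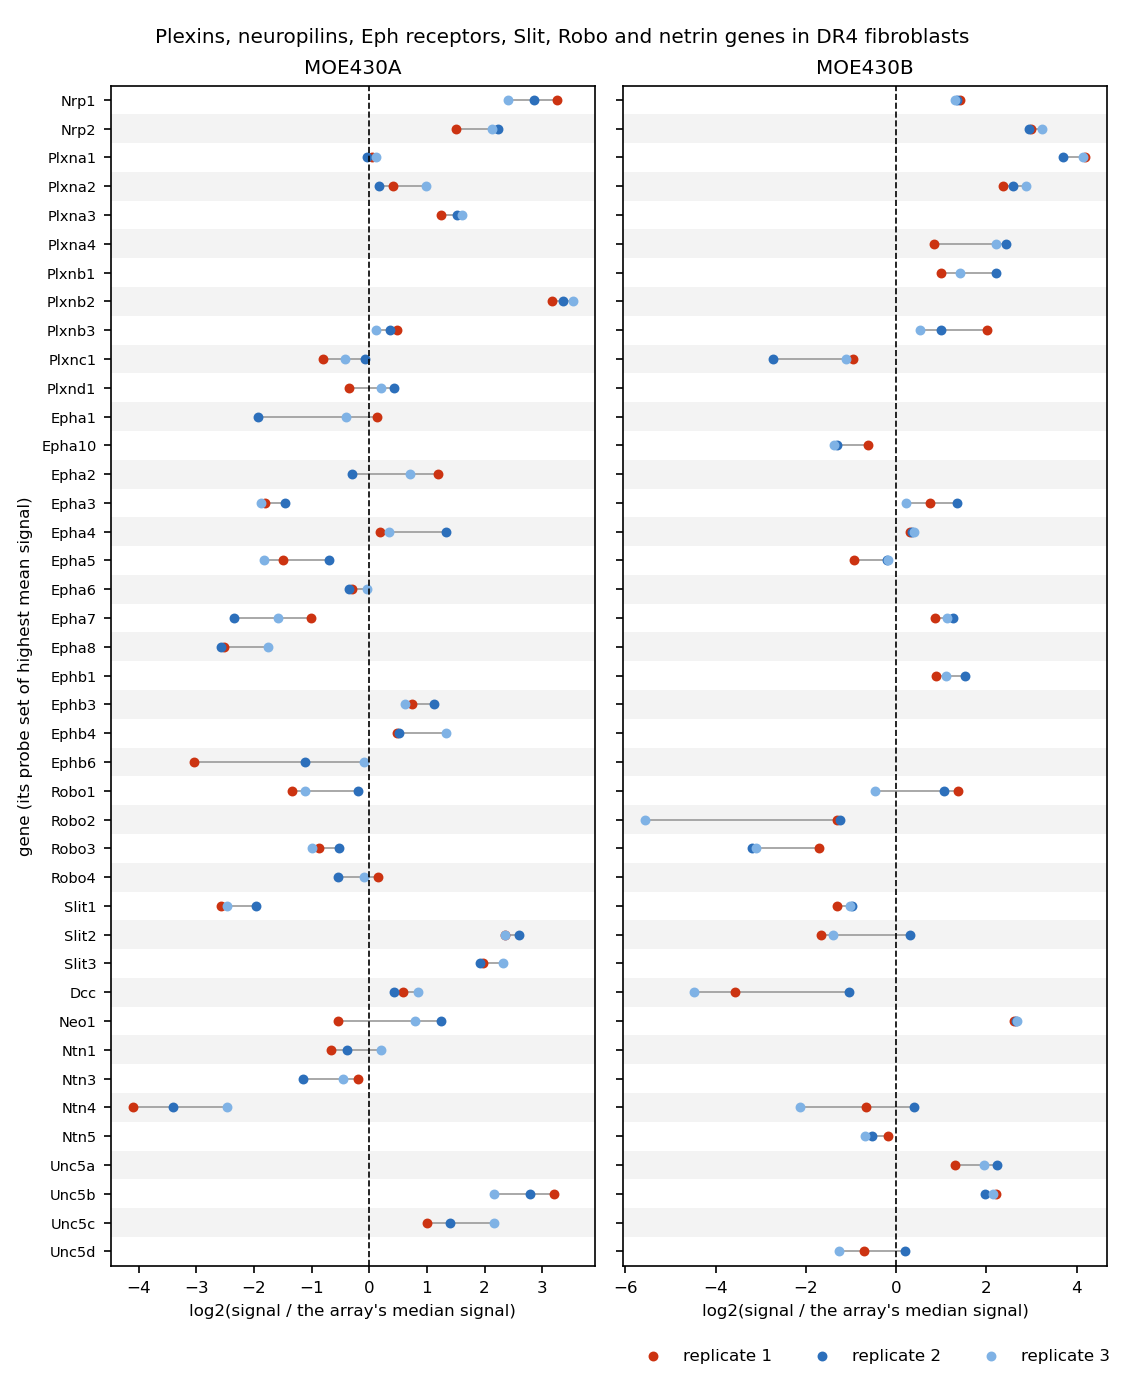
Signals of 11 plexin and neuropilin, 13 Eph, 7 Slit and Robo and 10 netrin and netrin receptor genes, drawn as in the plot of semaphorins and ephrins (x axis, log2 of the signal over that array's median signal; y axis, gene; dashed line, the median). Nrp1, Plxnb2 and Unc5b lie far right of the line on MOE430A, and no Robo or netrin gene lies right of it in all 3 replicates on either array type.

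Eph receptors were above the floor for 6 of 13 genes. Among class A receptors, 3 of 9 genes were above it: Epha4, which binds ephrins of both classes, at 785, 1714 and 935 on MOE430A, Epha3 at 1434, 2319 and 1061 and Epha7 at 1549, 2185 and 1978, both on MOE430B. Epha4 was above the floor by 2 of its 5 probe sets, and its other MOE430A probe set had 247, 111 and 400. Epha3 and Epha7 each had 3 further probe sets on MOE430A, all under the floor, and neither exceeded the tryptophan control on all MOE430B arrays. Epha2 had 1580.3, 556 and 1201, above the floor in replicates 1 and 3. Epha1 had 761, 180.1 and 557, above the floor in replicate 1 only, and Epha5, Epha6, Epha8 and Epha10 were under the floor on every array. Among class B receptors, Ephb3 had 1155, 1486 and 1134 and Ephb4 961, 978 and 1839.8 on MOE430A, and Ephb1 had 1554, 2621 and 1949 on MOE430B. Ephb6, a member of the family known to lack kinase activity, had 83.4, 315 and 691. It was under the floor in all replicates, replicate 3 lying nearest to it.

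Slit2 and Slit3 were above the floor, and no Robo receptor was. Slit2, the Slit best known for repelling axons at the midline, had 3523, 4142 and 3756 on MOE430A, with the replicates close together. Slit3 had 2716, 2599.6 and 3664 on its single probe set. Slit1, whose known expression is mainly neural, had 116, 175 and 133 on MOE430A and 342, 467 and 449 on MOE430B. The 2 further probe sets of Slit2 were not above the floor on all arrays, at 346, 82.2 and 418 on MOE430A and 268, 1129 and 342 on MOE430B. For the receptors, Robo1 had 274, 599 and 339 on MOE430A and 2185, 1920.0 and 650.4 on the brightest of its MOE430B probe sets, where replicate 3 was under the floor. Robo2 had 341, 389.7 and 19.3, Robo3 had 375, 475 and 370.2, and the endothelial Robo4 had 769, 469.9 and 687.

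Of 6 netrin receptors 5 were above the floor, and no netrin was. Unc5b, a netrin receptor also found on blood vessels, had 6330.2, 4733 and 3271 on MOE430A and 3916, 3572 and 3991 on MOE430B. On MOE430A it was highest in replicate 1, whereas on MOE430B the replicates lay close together. Unc5c had 1386, 1799 and 3307 and 1105, 821 and 1805 on its 2 probe sets, highest in replicate 3 on both. Unc5a had 2085, 4289 and 3474 on MOE430B. Neo1, which also binds the repulsive guidance molecules of the RGM family, had 5195, 5750.2 and 5829 and 2439, 4361 and 4851 on 2 of its MOE430B probe sets, both of a kind whose probes may match more than 1 transcript. Dcc, the attractive netrin receptor of neurons, had 1033, 926 and 1323 on MOE430A and 163, 160.0 and 100.2 and 71.5, 444 and 40.5 on MOE430B. Dcc was therefore above the floor by 1 of 3 probe sets. Unc5d had 517, 1057 and 376 on MOE430B, above the floor in replicate 2 only. Ntn1, the founding netrin, had 438, 522 and 847 and 268, 117 and 106, and Ntn3 had 603, 308 and 533, under the floor except for replicate 3 on the first Ntn1 probe set. Ntn4, a netrin of basement membranes, had 40.3, 64.5 and 132 on MOE430A and 536, 1210.5 and 208 on MOE430B, where only replicate 2 exceeded its floor. Ntn5 had 754, 628 and 565 on MOE430B, under the floor throughout. Of the genes matched by letters only, Unc50 had 2087, 2824 and 2657 on MOE430A, Unc5cl had 2336, 3063 and 2175 and Plxna4os1 762, 660.2 and 288 on MOE430B.

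Known binding pairs were then read from these calls. Of 28 pairs listed, 26 had both partners measured. In 12 of them both partners were above the floor, among them Sema3a with Nrp1, Sema3f with Nrp2, Sema6d with Plxna1, Efnb1 with Ephb3, Efnb2 with Ephb4 and Efna5 with Epha4. In 4 only the ligand was, namely Slit2 with Robo1, Slit2 with Robo2, Slit3 with Robo1 and Sema7a with Plxnc1. In 7 only the receptor was: Ntn1 with Dcc, Neo1, Unc5b and Unc5c, Sema6a with Plxna2 and with Plxna4, and Efnb3 with Epha4. In 3 neither was, namely Sema3e with Plxnd1, Slit1 with Robo2 and Efna1 with Epha2. Some calls rest on genes that did not exceed the brightest tryptophan control on all arrays of a type. Among the 12 pairs these are Sema4d with Plxnb1, Sema5a with Plxnb3, and Efna5 and Efna2 with Epha3, through Plxnb1, Sema5a and Epha3. Elsewhere they are Sema7a and Plxna4. The pairs share genes and are not independent, so these are counts with no test, and a transcript above the floor does not show that its protein was made.

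A gene's probe sets often differed. Of 47 member genes with 2 or more probe sets, 11 had all of them above the floor, 16 had none, and 20 had some above and some not. Of 29 genes with probe sets on both array types, 10 were above the floor on both, 3 on MOE430A only, 6 on MOE430B only and 10 on neither. The 3 on MOE430A only were Dcc, Efna2 and Slit2. In all, 23 of the 40 genes above the floor rested on 1 probe set. Through MOE430B alone 13 genes counted, of which 5 (Efna5, Neo1, Plxna1, Sema4c and Unc5a) also exceeded the highest tryptophan control on all 3 arrays, and 8 did not. The 8 were Epha3, Epha7, Ephb1, Plxna4, Plxnb1, Sema3d, Sema5a and Unc5cl.

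Promoters of the guidance genes were rich in CpG, the dinucleotide that clusters in promoters of widely used and developmental genes. RefSeq promoter sequences (GRCm38.p6) were matched for 59 of the 69 guidance genes, and the 250 bases before the first listed start were read. Sema3b and Sema3f were not among the genes matched. The promoters read held a median of 16 CpG, beside 10 in 17492 protein-coding genes. The median was 17 in the 34 members above the floor and 15 in the 25 not above it. The letters GGGCGG, a GC box, occurred on either strand in 74.6% of member promoters and 42.7% of all, in 73.5% of those above the floor and 76.0% of those not above it. TATAAA, the letters of the TATA box, occurred on either strand in 2 of 59 (3.39%), Slit2 and Efnb2, beside 12.4% of all. These shares are a description, with no test, and a match is not a bound site. To show the range among genes above the floor, 3 promoters follow 5′ to 3′ with each CG in capitals. Sema3c lies at chr5:17574566-17574815 (plus strand) with 39 CpG. Sema3a, its family member on the same chromosome, lies at chr5:13396534-13396783 (plus strand) with 2. Neo1, a gene whose replicate difference is described next with those of Sema3b and Sema3f, lies at chr9:59036442-59036691 (minus strand) with 45.
Sema3c: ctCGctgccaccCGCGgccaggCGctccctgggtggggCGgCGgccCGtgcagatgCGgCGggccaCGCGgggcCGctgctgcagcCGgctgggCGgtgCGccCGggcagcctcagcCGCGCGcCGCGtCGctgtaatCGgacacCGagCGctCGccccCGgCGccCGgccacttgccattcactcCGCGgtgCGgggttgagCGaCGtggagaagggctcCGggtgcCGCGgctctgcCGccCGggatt
Sema3a: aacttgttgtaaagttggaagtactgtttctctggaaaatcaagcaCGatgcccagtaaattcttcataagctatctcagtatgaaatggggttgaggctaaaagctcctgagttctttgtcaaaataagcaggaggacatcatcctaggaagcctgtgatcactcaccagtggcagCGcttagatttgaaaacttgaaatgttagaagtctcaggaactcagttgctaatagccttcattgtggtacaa
Neo1: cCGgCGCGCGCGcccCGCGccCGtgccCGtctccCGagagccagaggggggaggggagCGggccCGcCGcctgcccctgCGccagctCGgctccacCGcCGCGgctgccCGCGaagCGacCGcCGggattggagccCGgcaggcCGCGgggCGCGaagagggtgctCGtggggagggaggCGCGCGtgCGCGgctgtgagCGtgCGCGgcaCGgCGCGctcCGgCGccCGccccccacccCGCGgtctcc
The last 60 bases before the start of Slit2, at chr5:47983095-47983154 on the plus strand, follow with TATAAA in capitals, which begins 28 bases before the start.
Slit2: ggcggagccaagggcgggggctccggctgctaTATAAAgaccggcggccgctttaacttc

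The labels record 1 difference among arrays of a type, the number of cells and the RNA concentration of replicate 1, and the guidance genes were compared across it. On MOE430A 3 member probe sets were lower in replicate 1 by limma at an adjusted p of 0.05: 1 each of Sema3b and Sema3f, secreted repellents, and of Neo1, a netrin receptor. They were among 45 member probe sets in the test (6.67%), beside 0.705% of all 11066 probe sets tested in either direction and 0.488% lower in replicate 1. All 3 were under the floor in replicate 1 and entered the test through their signals in replicates 2 and 3, so they had to differ to be tested, and nothing is read from their share against the background. The same limit holds for the other shares over tested members on this array type. No member above the floor on all 3 arrays was called, and no member was called higher. The other 55 of the 100 member probe sets were too dim for the test. Replicate 1 has a single array per type, so its own spread is unmeasured and the calls describe these arrays.

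The called probe set of Sema3f had 406 in replicate 1 against 981 and 2185 in replicates 2 and 3. Its log2 difference was -1.81 ± 0.41 (SE) with an adjusted p of 0.0297 in limma, and since replicate 1 was under its floor the fold is given against that floor, as at least 2.12-fold lower. The second Sema3f probe set on MOE430A did not show this order, with 2027 in replicate 1 against 1663 and 4067 in replicates 2 and 3, nor did that on MOE430B, with 13936 in replicate 1 against 11724 and 14952 in replicates 2 and 3. On both, replicate 1 lay between replicates 2 and 3.

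The called probe set of Sema3b had 311 in replicate 1 against 721 and 1826 in replicates 2 and 3, a log2 difference of -1.83 ± 0.43 (SE) with an adjusted p of 0.0358 in limma. Replicate 1 was under its floor, and the bound was at least 1.67-fold. The bound was carried by replicate 3: leaving out replicate 2 gave 2.65-fold, and leaving out replicate 3 gave 1.05-fold. A second Sema3b probe set had 494 in replicate 1 against 818 and 1962 in replicates 2 and 3 and the same order of replicates, with an adjusted p of 0.19 in limma. The remaining one was under the floor throughout, with 302 in replicate 1 against 199 and 298 in replicates 2 and 3. For Sema3f, leaving out replicate 2 gave 3.17-fold, and leaving out replicate 3 gave 1.42-fold.

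The called probe set of Neo1 had 474 in replicate 1 against 1617 and 1279 in replicates 2 and 3, a log2 difference of -1.57 ± 0.37 (SE) with an adjusted p of 0.0393 in limma and a bound of at least 2.09-fold lower. Replicates 2 and 3 lay close together here. On MOE430B, Neo1 had 2439 in replicate 1 against 4361 and 4851 in replicates 2 and 3 on 1 probe set and 5195 in replicate 1 against 5750.2 and 5829 in replicates 2 and 3 on another, replicate 1 lowest on both. It had 338 in replicate 1 against 75.7 and 80.4 in replicates 2 and 3 on 1 of the others and 1244 in replicate 1 against 826 and 1092 in replicates 2 and 3 on the last, replicate 1 highest on both. Those of the 4 that were in the test were not called.

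The 3 calls depended on how the values were treated. With quantile normalization the log2 differences were -1.78 for Sema3f, -1.80 for Sema3b and -1.51 for Neo1, nearly as large, but the calls were lost (adjusted p of 0.481, 0.529 and 0.414 in limma, in the same order). They were also lost with no filter on low values, where the differences were the same and the adjusted p was 0.905, 0.942 and 0.781. Under these settings limma called 0 of 11066 and 0 of 22626 probe sets, with 750 and 1297 at an unadjusted p below 0.05. By the instrument records, replicates 1 and 2 were scanned on the same day and washed on the same fluidics station on MOE430A, while day and station were different for replicate 3. Within the shared day, replicate 1 minus replicate 2 was -1.24 for Sema3f, -1.17 for Sema3b and -1.74 for Neo1 on the log2 scale, the same direction on 1 array each. These probe sets were picked for being lower in replicate 1, which nearly fixed that direction. Any part of scan day or station was not tested. The fibroblast marker list had a summed MOE430A signal of 734468 in replicate 1 against 822347 and 885013 in replicates 2 and 3, all 12 markers above the floor. Of its 22 MOE430A probe sets in the test 17 were lower in replicate 1, the collagens among them, while all 3 of Vim and that of Thy1 were highest in replicate 1. The epithelial list, with 2 of 7 markers above the floor, had a summed MOE430A signal of 5646 in replicate 1 against 4709 and 4301 in replicates 2 and 3. Its only MOE430A probe set above the floor, of Krt8, had 1701, 1753 and 1052, not highest in replicate 1. Its marker Epcam ran the other way on MOE430B, with 17127, 36210.1 and 43842, and was under the floor on MOE430A, with 37, 80.5 and 68.8. Sums over the other lists lay closer together. They were 15719, 15017 and 15021 for neurons and glia, 5679, 5798 and 6138 for endothelium, and 9225, 9540 and 9186 for macrophages. Their part in the result was not tested.

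**Figure D3:**
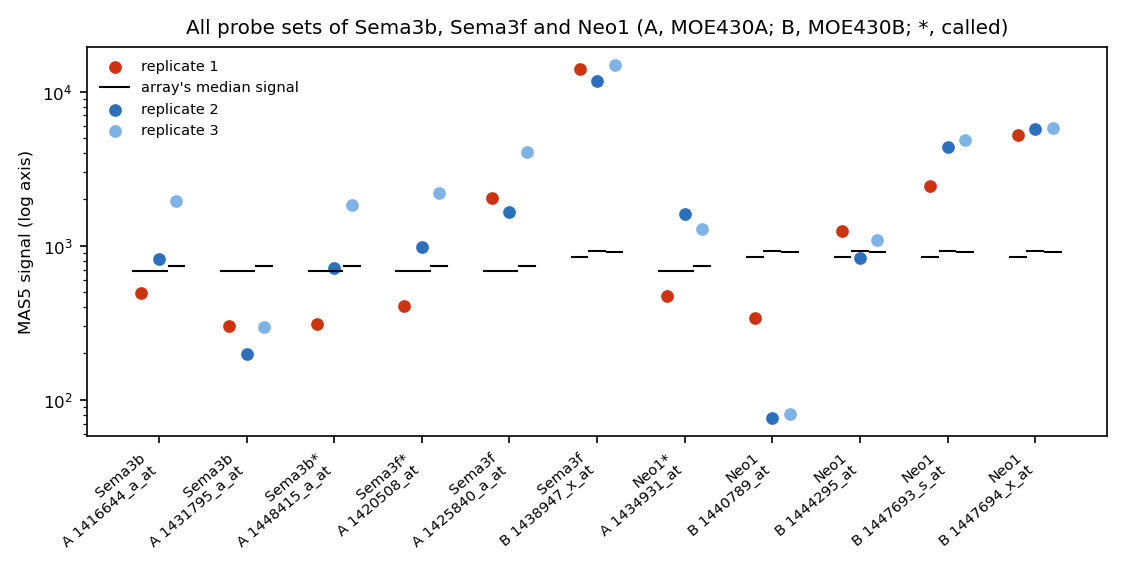
MAS5 signals (log y axis) of all 11 probe sets of Sema3b, Sema3f and Neo1 (x axis, with A for MOE430A, B for MOE430B and * for a called probe set), with replicate 1 in red, replicate 2 in dark blue, replicate 3 in light blue and black dashes at each array's median signal. Replicate 1 is under its median on the 3 called probe sets, and the other probe sets of Sema3f and Neo1 do not all share that order.

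The other members tested were not called. On MOE430A 8 of 45 member probe sets (17.8%) had an unadjusted p below 0.05, beside 8.13% of all, 6 of them lower and 2 higher in replicate 1. The 2 higher were Sema7a, with 1524 in replicate 1 against 718 and 863 in replicates 2 and 3 (adjusted p = 0.383 in limma), and Epha2, with 1580.3 in replicate 1 against 556 and 1201 in replicates 2 and 3 (adjusted p = 0.508). The lower ones, beside the 3 called and the second Sema3b probe set, were Efnb3, with 509 in replicate 1 against 985 and 801 in replicates 2 and 3 (adjusted p = 0.58), and Unc5c, with 1386 in replicate 1 against 1799 and 3307 in replicates 2 and 3 (adjusted p = 0.615). By value, 33 of the 45 (73.3%) were lower in replicate 1, beside 51.1% of all tested, with a median log2 difference of -0.17, beside -0.01 for all. That count was 25 with replicate 1 set against replicate 2 alone, beside 50.6% of all tested. The median log2 difference was then -0.09, beside -0.01 for all. Against replicate 3 alone it was 33, beside 51.9%, with a median of -0.35, beside -0.02. With quantile normalization the count was 31, beside 48.8%.

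On MOE430B limma called 0 of 32 member probe sets tested and 0 of 10594 in all (0%), and 0 also with an intensity trend. In simulated data this fit made no calls in most draws even for large changes, so the absence of calls on MOE430B says little about the members. Of the members 3 (9.38%) had an unadjusted p below 0.05, beside 7.24% of all. Plxna4, a class A plexin, had 1517 in replicate 1 against 4989 and 4167 in replicates 2 and 3 (adjusted p = 0.49 in limma), while its second probe set ran the other way, with 2717 in replicate 1 against 945 and 2003 in replicates 2 and 3. Sema3d had 877 in replicate 1 against 2112 and 1782 in replicates 2 and 3 (adjusted p = 0.647). Plxnb3 had 3436 in replicate 1 against 1815 and 1303 in replicates 2 and 3 (adjusted p = 0.671). By value, 21 of the 32 (65.6%) were lower in replicate 1, beside 47.4% of all, with a median log2 difference of -0.17, beside 0.03 for all. Fluidics station and replicate 1 cannot be told apart on MOE430B, where replicate 1 alone was on another station.

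**Figure D4:**
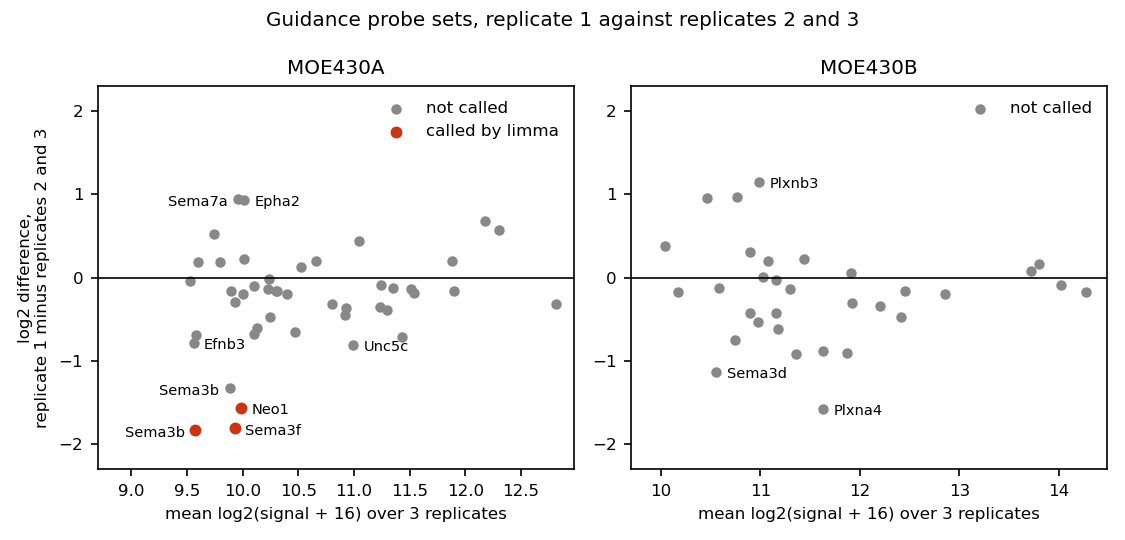
Log2 difference of replicate 1 minus replicates 2 and 3 (y axis) against mean log2(signal + 16) over 3 replicates (x axis) for the 45 MOE430A and 32 MOE430B member probe sets in the test, in red where limma called them and grey otherwise, with names where the unadjusted p was below 0.05. The 3 called probe sets sit lowest on MOE430A, at -1.83, -1.81 and -1.57.

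The spread between replicates is the error of a control profile. Over the 3 MOE430A arrays the SD of log2 signal had a median of 0.33 in the 35 members above the floor, beside 0.24 over all 9600 such probe sets, and 7 of them (20.0%) differed by more than 2-fold between replicates, beside 7.57%. Without replicate 3 the members' median SD on MOE430A was 0.19, with no value over all probe sets taken beside it. On MOE430B the 30 members had a median SD of 0.28, beside 0.28 over all 8384, and 8 (26.7%) differed by more than 2-fold, beside 13.3%. Members and all probe sets were not matched for signal, so a wider spread is not read as a trait of the members. In the 11 MOE430A members above the 75th percentile of each array the median SD was 0.27. After 1 probe set of Unc50 (2564, 3891 and 912), the widest on MOE430A were Efnb2 (1176, 732 and 1943), Sema3f (2027, 1663 and 4067), Unc5c and Epha4, with SDs from 0.58 to 1.07 over the 5. On MOE430B they were both probe sets of Plxna4, Plxnb3, Plxnb1 and Sema3d, with SDs from 0.66 to 0.92. Each of these had a replicate under the brightest tryptophan control of its array. The steadiest were Sema6d, Sema6c and Slit2 on MOE430A, with SDs of 0.10, 0.10 and 0.12, and Nrp1, Unc5b and Neo1 on MOE430B, with SDs of 0.03, 0.09 and 0.09.

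Genes that carry guidance signals inside the cell were read from a separate list of co-receptors and cytoplasmic proteins. Of 55 listed, 51 were measured and 39 (76.5%) were above the floor, beside 54.7% of all genes. The 51 had 143 probe sets, and all 18193 genes had 20380 on MOE430A and 14661 on MOE430B. A gene with more probe sets has more chances to be above the floor, and the shares were not matched for this. The actin-severing protein Cfl1, the end point of semaphorin and ephrin signals on the cytoskeleton, had 49518, 44478 and 36961 in replicates 1, 2 and 3 on MOE430A, and the small GTPase Rac1 had 37265, 28179 and 29067. Dpysl2, the collapsin response mediator through which Sema3a acts, had 38952, 39378 and 30583 on MOE430B. There the small GTPase Cdc42 had 30689, 26386 and 23597 and Flrt2, a ligand of Unc5 receptors, had 19645, 14647 and 21103. These 5 genes had the highest mean probe set signals over both array types, which does not rank their transcripts. The other Dpysl2 probe set, on MOE430A, had 507, 477 and 409, under the floor in all replicates. So was 1 MOE430A probe set each of Rac1 (171, 295 and 174) and Cdc42 (32.7, 177 and 54.4). Cfl1, Rac1 and Cdc42 serve every cell that moves or changes shape, not guidance alone. In replicate 1 against replicates 2 and 3, limma called 0 of 46 probe sets of this list higher or lower on MOE430A and 0 of 37 on MOE430B, with median log2 differences of 0.11 and 0.01 and an unadjusted p below 0.05 for 4 and 3.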

How the data were processed

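Affymetrix MOE430A and MOE430B arrays of 3 replicates each of DR4 fibroblasts were used, 6 samples in all. The deposited intensity of each probe set is a MAS5 signal on a linear scale, per the submitters' processing notes; its settings are not stated there, and the values show that the arrays of each type were scaled to 1 trimmed mean. The deposited instrument records, a file of settings with no measurement, gave scan day and fluidics station. Genes were named from the platform annotation of GEO, whose symbols may be out of date: 20380 MOE430A and 14661 MOE430B probe sets have 1 symbol, 691 and 245 have several, and 1555 and 7605 have none. The last 2 kinds and the 64 control probe sets per type were not used as members, and controls stayed out of the tests.

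From these values a floor was set at each array's median signal over all rows. Replicate 1 was set against replicates 2 and 3 within each array type with limma 3.58.1 in R 4.3.3 (lmFit and eBayes on log2(signal + 16), Benjamini-Hochberg over all probe sets tested, threshold 0.05), on probe sets with a mean log2 signal above the mean log2 floor. The fit has 1 residual degree of freedom, from replicates 2 and 3, and takes the lone array to vary like the other 2. To this eBayes adds a variance pooled over all probe sets tested, weighted as 25.6 degrees of freedom on MOE430A and 3.49 on MOE430B. An SE or p-value is therefore mostly not a probe set's own spread. Tested on simulated data with large known changes, the fit gave their size without a bias on both array types and called them on MOE430A, but on MOE430B it called none of them in most draws. A fold is given as "at least" where a dim array was replaced by its floor. Fold changes on the log2(signal + 16) scale understate those of dim probe sets. Promoter letters came from a RefSeq table of GRCm38.p6, searched on both strands for GGGCGG and TATAAA.

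The members, lists and pairs were chosen with earlier results of these data known. Genes were named by rule: all members above the floor, all called members and those with an unadjusted p below 0.05, the 5 members of widest spread per array type, and the 5 pathway genes of highest mean signal over both array types. The steadiest members, Vim, Thy1, Krt8 and Epcam were named after their values were seen. Alternatives were other floors, pseudocounts of 1 and 64, no filter, an intensity trend, quantile normalization and leaving out replicates.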

Additional observations from a re-analysis of the deposited data

How the results depend on the processing

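The count of member genes above the floor, 40, became 19 with the 75th percentile as the floor and 65 with a fixed signal of 200. It ranged from 42 to 43 with a replicate left out, and lay between 27 and 40 with the tryptophan control as the floor, with the first probe set, with MOE430A alone, with updated symbols, without probe sets ending in _s_at or _x_at, and, chosen after seeing the data, without Unc50, Unc5cl and Plxna4os1. Member probe sets above the floor were 11 and 63 of 100 on MOE430A with the 75th percentile and the fixed signal, and 15 and 46 of 61 on MOE430B. With the tryptophan control they were 33 and 12. With a replicate left out they ranged from 37 to 41 on MOE430A and from 30 to 32 on MOE430B. Shares over all probe sets are not given beside these probe set counts, which show only how they move with the setting.

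The 3 calls on MOE430A became 0 with no filter on low values and 0 with quantile normalization, for a cause that was not tested, and the same 3 were called with pseudocounts of 1 and 64 and with an intensity trend. On MOE430B limma called 0 under each setting. None of the 11 named member differences changed sign. The 11 were named for differing in these same data, and the intensity trend and the filter do not alter the difference itself. A kept sign was therefore nearly fixed in advance, and nothing is read from it. With replicate 2 or 3 left out no residual degree of freedom is left and there is no contrast without replicate 1, so those counts were not run. The median SD ranged from 0.19 to 0.30 on MOE430A and from 0.20 to 0.27 on MOE430B with a replicate left out, and was 0.19 on MOE430A without replicate 3. No paired analysis was possible because the array types were not compared with each other, and within a type each replicate number occurs once.

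Signals near the floor limit what can be read: MOE430B signals under the tryptophan control, and genes above the floor by 1 probe set, are the least sure.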
